A study of Mus musculus with 18 samples.

Results

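The 10 genes described here encode enzymes that make serine, glycine, one-carbon units, asparagine and proline. They are Phgdh, Psat1, Psph, Shmt1, Shmt2, Mthfd2, Mthfd1l, Asns, Aldh18a1 and Pycr1, taken by symbol from a table of 20655 genes, and all 10 were found. Their reads were counted over coding sequences in mouse cells at E18.5, given as epidermal basal cells, after shRNA had been given to the epidermis in utero at E9.5. Each of 3 conditions had 3 libraries of ribosome footprints, which are mRNA fragments shielded by ribosomes, and 3 libraries of RNA, which makes 18 libraries.

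The control condition, WT shScram, carried a scrambled shRNA in mice whose Gt(ROSA)26Sor locus holds an ACTB-driven reporter of tdTomato and EGFP. HrasG12V shScram carried the same shRNA in mice of strain FR-HrasG12V, whose Hras allele codes for the oncogenic G12V form of this small GTPase. HrasG12V shEif2b5 carried an shRNA against Eif2b5, the catalytic subunit of the initiation factor eIF2B, in the FR-HrasG12V strain. Strain and genotype cannot be told apart in this design, and WT mice with shEif2b5 were not among the groups. For WT shScram footprint library 1 the genotype is labelled Rosa26, while every other library of this condition is labelled WT. All cells were exposed to cycloheximide, dispase and trypsin before lysis. Whether the 3 libraries of a condition stem from different embryos is not in the labels, so a p-value here reflects library-to-library spread, which may be technical.

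Phgdh, Psat1 and Psph act in turn to convert a glycolytic intermediate into serine. Shmt1 in the cytosol and Shmt2 in mitochondria then split serine into glycine and a one-carbon unit carried on folate, and Mthfd2 and Mthfd1l pass that unit through the mitochondria to formate, which feeds purine synthesis. Asns makes asparagine from aspartate and glutamine, and Aldh18a1 and Pycr1 act early and late in proline synthesis. Many of these genes are textbook targets of ATF4, a transcription factor whose mRNA is held back by upstream reading frames and is translated more when eIF2B activity falls. ATF4 binds composite elements near its targets, and Asns and Psat1 are among the genes used to read its activity.

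The gene starts were searched for the core of that element, TGATGNAA, on both strands of the 250 bases before each RefSeq start (GRCm38.p6, the mm10 build). All 10 genes had a window, and Psat1 had 2, so that 11 windows were read. The motif lay in the windows of Asns and Pycr1 alone (2 of 10 genes), and 3.45% of all 32851 RefSeq windows of that length hold it. A match is a description of letters and not evidence of binding, and its lack says only that these letters are not in the window. The Asns match, on the gene's own strand, begins 23 bases before the RefSeq start and is shown as 30 bases at chr6:7693214-7693243 (minus strand), because the GENCODE transcript starts 45 bases further upstream and includes it. The Pycr1 match begins 103 bases before the start, on the gene's own strand, and is shown at chr11:120643770-120643998 (minus strand). Psat1 is shown because it was the member whose footprints passed the test, at chr19:15925060-15925309 (minus strand), with no match. Capitals mark the motif, and sequences run 5′ to 3′ on the gene's strand.
Asns: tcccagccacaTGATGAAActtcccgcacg
Pycr1: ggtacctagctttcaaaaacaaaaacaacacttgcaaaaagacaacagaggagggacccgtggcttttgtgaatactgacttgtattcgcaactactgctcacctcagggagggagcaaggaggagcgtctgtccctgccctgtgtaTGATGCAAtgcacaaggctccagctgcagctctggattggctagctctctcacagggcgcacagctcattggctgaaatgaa
Psat1: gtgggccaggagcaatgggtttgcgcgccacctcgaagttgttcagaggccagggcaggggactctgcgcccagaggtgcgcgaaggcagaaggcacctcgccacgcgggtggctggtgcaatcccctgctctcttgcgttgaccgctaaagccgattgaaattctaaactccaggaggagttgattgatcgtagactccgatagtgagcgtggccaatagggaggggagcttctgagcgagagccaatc

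Library totals over coding sequences were 3319175 to 4933298 for footprints and 1771365 to 5505386 for RNA. The 10 genes together took 0.113% (WT shScram library 1) to 0.172% of a footprint library and 0.0823% to 0.115% of an RNA library. Levels are given as CPM (counts scaled to the library size after TMM normalisation), with mean ± SD over n = 3 libraries, and a gene was called when its Benjamini-Hochberg adjusted p in edgeR's quasi-likelihood test over all tested genes was under 0.05. Markers of basal keratinocytes, among them Krt5 and Krt14, summed to 9782 to 16729 CPM of footprints. Markers of differentiated keratinocytes, among them Krt1 and Krt10, summed to 23041 to 71723 CPM, with no marker of either list at 0 in a group. In RNA the sums were 9580 to 18762 CPM for basal and 35084 to 103360 CPM for differentiated markers. The cells can therefore not be taken as basal alone. Summed CPM over both kinds of library were 1460 to 3512 for hair follicle markers, 388 to 1624 for melanocyte, 359 to 2466 for dermal fibroblast, 21.8 to 50.6 for Merkel cell, 9.93 to 27.3 for immune (1 of 6 at 0), 2.22 to 17.6 for endothelial, 2.48 to 21.6 for erythroid (4 or 5 of 6 at 0) and 1.67 to 31.2 for skeletal muscle markers. Eif2b5 footprints were 91.9 to 102 CPM in HrasG12V shScram and 78.5 to 95.4 CPM in HrasG12V shEif2b5, which overlapped (adjusted p = 0.994, edgeR). Every HrasG12V shEif2b5 library had less Eif2b5 than WT shScram, which held 102 to 106 CPM of footprints and 158 to 179 CPM of RNA. Strain differs there too, and neither difference was called (log2 -0.27 and -0.29, adjusted p = 0.299 and 0.927, edgeR). Eif2b5 RNA in HrasG12V shScram was 127, 388 and 145 CPM, against 134, 128 and 143 CPM with shEif2b5. HrasG12V shScram RNA library 2 stood apart and the groups overlapped (adjusted p = 0.257, edgeR). Libraries 1 and 3 beside it also lay below WT. Without them the log2 difference was -1.52, and without library 2 the adjusted p was 0.993 (edgeR). The same RNA comparison called 1444 genes with all libraries and 17 without HrasG12V shScram RNA libraries 1 and 3, which leaves 1 library in that group. The RNA comparison of HrasG12V shScram with WT shScram called 854 and 47 in the same way, and 2431 without library 2. In bulk RNA, fewer cells of a type and less RNA per cell cannot be told apart.

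Psat1 and Phgdh, of serine synthesis, were the most abundant of the set per length of coding sequence. Averaged over the 9 footprint libraries, Psat1 stood at 552 CPM per kb, above 97.3% of the 11068 tested genes with a length, and Phgdh at 204 CPM per kb, above 92.1%. Psph (103 CPM per kb), Shmt2 (98.4), Shmt1 (77.3) and Asns (73.1) followed, against a median of 18.6 CPM per kb over all genes. Psph and Shmt2 could not be ordered, since in HrasG12V shEif2b5 they averaged 107 and 108 CPM per kb and in WT shScram 80.1 and 92.3. Nor could Shmt1 and Asns, which averaged 78.1 and 89 CPM per kb in HrasG12V shEif2b5 and 74.8 and 60.0 in WT shScram. Aldh18a1 (37.7 CPM per kb) and Mthfd2 (24.5) came next, and Mthfd1l (9.78) and Pycr1 (4.46) lay below the median of all genes. In RNA, Psat1 (285 CPM per kb) and Phgdh (174) again led, Shmt2 (67.6) stood above Psph (49), and Pycr1 (4.2) was last. Pycr1 rested on 11 to 29 reads in each footprint library and on 2 to 23 in each RNA library, so its differences are known only coarsely.

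**Figure D1:**
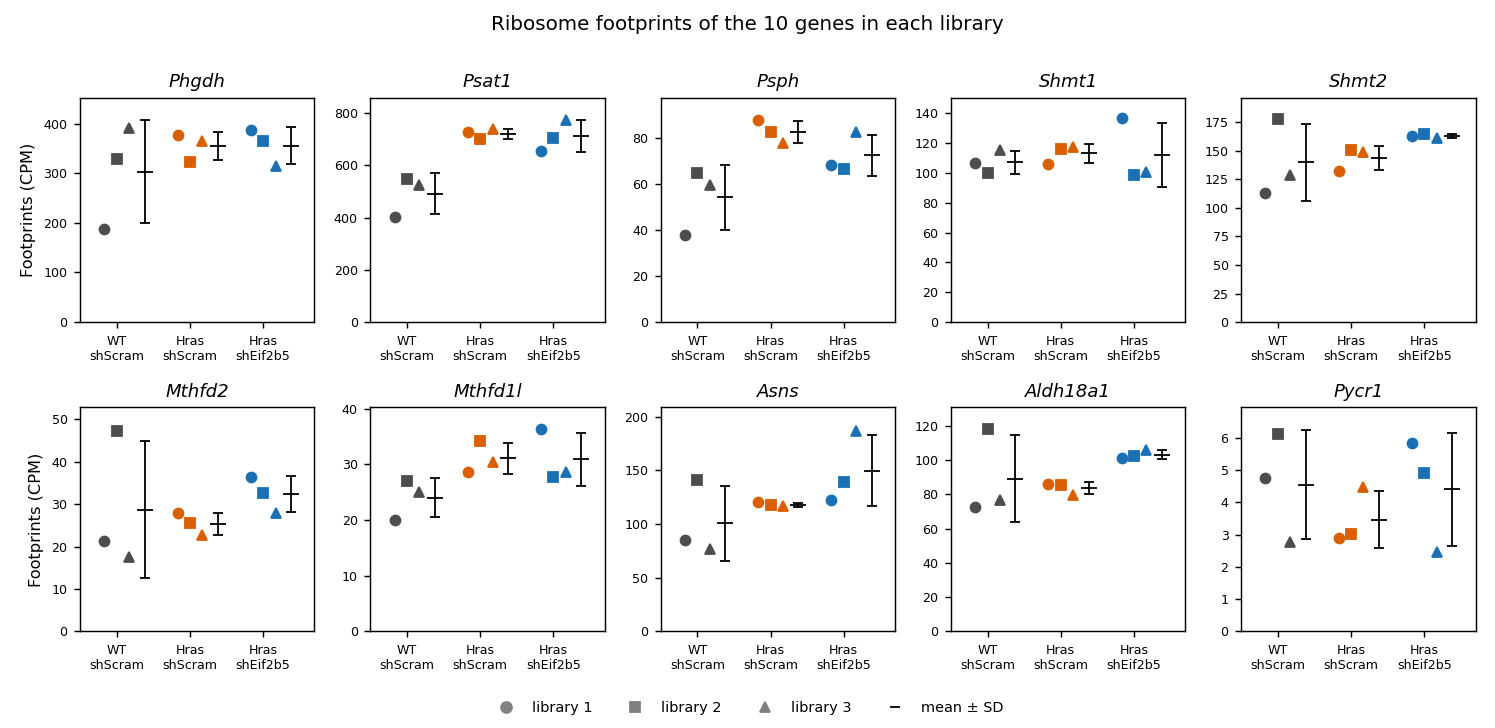
Footprint level of each of the 10 genes by condition, in CPM after TMM scaling; each point is 1 library and each bar the mean of 3. Psat1 is higher in all 6 HrasG12V libraries (654 to 774 CPM) than in the 3 WT shScram libraries (401 to 546 CPM), while Asns, Aldh18a1 and Mthfd2 have their widest spread or an outlying library in WT shScram.

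The first question was which of these enzymes are translated differently in HrasG12V than in WT epidermis. Psat1, the transaminase of serine synthesis, was the only 1 of the 10 genes called in footprints, against 1.7% of all 11448 tested genes. Psat1 footprints were 401, 546 and 525 CPM in WT shScram (491 ± 78.6) and 725, 700.0 and 737 CPM in HrasG12V shScram (721 ± 19.1). Every HrasG12V library was above every WT library, and footprints rose 1.47-fold (log2 change 0.55, SE 0.13, 95% interval 0.29 to 0.82, adjusted p = 0.0272, edgeR). The call was lost when any 1 of the 3 HrasG12V libraries or WT library 1 was left out. Without HrasG12V shScram footprint library 1, 2 or 3 the adjusted p for Psat1 was 0.124, 0.0945 and 0.115, and without WT shScram library 1 the log2 change was 0.42 with an adjusted p of 0.108. That WT library had the highest footprint sum over 7 dermal fibroblast markers (2466 CPM, against 1227 and 1841 in the other WT libraries and 1157 to 1828 in HrasG12V), with no marker at 0, and the part of these cells in the result was not tested. Of the marker lists, this footprint comparison called hair follicle genes alone, 3 of 8: Foxi3 (log2 -0.94, adjusted p = 0.00259) and Shh (-0.57, adjusted p = 0.0469) fell and Krt17 (0.66, adjusted p = 0.0303, edgeR) rose. Their part in the Psat1 result was not tested either.

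Psph, the phosphatase that completes serine synthesis, gave 37.9, 64.6 and 59.6 CPM of footprints in WT shScram (54 ± 14.2) and 87.4, 82.2 and 77.5 CPM in HrasG12V shScram (82.4 ± 4.93). The groups did not overlap. The log2 difference was 0.60 (SE 0.16, 95% interval 0.26 to 0.95), somewhat larger than for Psat1, but its adjusted p of 0.0745 (edgeR) missed the threshold. With no filter on low counts, with the DESeq2 Wald test or without WT shScram library 3, Psph passed, with adjusted p of 0.0279, 0.0465 and 0.0477. Phgdh, the first enzyme of the route, ran from 189 to 392 CPM within WT shScram alone (303 ± 104) and from 323 to 378 CPM in HrasG12V shScram (355 ± 28.9). The groups overlapped, with a log2 difference of 0.23 (95% interval -0.24 to 0.69, adjusted p = 0.697, edgeR). Without WT shScram footprint library 1 the difference was -0.03. Over the 9 footprint libraries, Psat1 and Psph varied together (Pearson r = 0.94 of log2 CPM, n = 9), and Phgdh with Psat1 less closely (r = 0.67). These libraries share group differences and depth, so the correlations describe them only.

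Among the one-carbon enzymes, Mthfd1l, which releases formate in mitochondria, was the third gene whose footprint groups did not overlap. Its levels were 20.1, 27 and 25 CPM in WT shScram (24 ± 3.56) and 28.5, 34.1 and 30.5 CPM in HrasG12V shScram (31.1 ± 2.84), a log2 difference of 0.36 with an adjusted p of 0.337 (edgeR). Thus 3 of the 10 genes had every HrasG12V library higher and 0 every library lower, where 10.4% of all tested genes were higher and 9.89% lower in that way. Shmt2 spanned 113 to 178 CPM in WT shScram and 132 to 151 CPM in HrasG12V shScram (log2 difference 0.04, 95% interval -0.26 to 0.34). Its cytosolic counterpart Shmt1 averaged 107 ± 7.76 and 113 ± 6.16 CPM (0.08, -0.20 to 0.36). For neither isozyme did the interval reach the size of the Psat1 change. Mthfd2, the mitochondrial dehydrogenase, was 21.2, 47.2 and 17.5 CPM in WT shScram and 27.9, 25.7 and 22.6 CPM in HrasG12V shScram, so that the HrasG12V libraries fell inside the WT range (log2 difference -0.19, 95% interval -0.89 to 0.52).

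Asns and the proline enzyme Aldh18a1 showed the same wide WT range. Asns footprints were 85.1, 141 and 76.6 CPM in WT shScram (101 ± 35) and 120.2, 118 and 117 CPM in HrasG12V shScram (118 ± 1.86). The log2 difference was 0.22 (95% interval -0.25 to 0.70, adjusted p = 0.709, edgeR), and WT library 2 lay above all HrasG12V libraries and the other WT libraries below them. Aldh18a1 was 72.8, 118 and 76.6 CPM against 85.8, 85.2 and 79.6 CPM (log2 difference -0.10, adjusted p = 0.838, edgeR). Pycr1 was 2.75 to 6.12 CPM against 2.9 to 4.48 CPM (log2 difference -0.39, 95% interval -1.25 to 0.47). The median log2 difference of the 10 genes was 0.15, with 7 above 0, against a median of -0.01 over all tested genes, 48.0% of which lay above 0.

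The footprints of Atf4 itself, the regulator of the set, were 16.2, 17.9 and 32.8 CPM in WT shScram (22.3 ± 9.14) and 49.3, 51.9 and 41.9 CPM in HrasG12V shScram (47.7 ± 5.18). They rose 2.13-fold (95% interval 1.51 to 3.01, adjusted p = 0.0272, edgeR), and the groups did not overlap. The Atf4 call was kept in 9 of 15 alternative analyses, and its adjusted p was at most 0.139.

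A second question was what shEif2b5 changes within HrasG12V epidermis. In footprints 0 of the 10 genes were called, as was 0.0% of all tested genes, and 0 of the 10 had an unadjusted p under 0.05 (519 of all genes did). No alternative analysis called a member, the DESeq2 Wald test included. Psat1 was 654, 705 and 774 CPM in HrasG12V shEif2b5 (711 ± 60.5), around the 700.0 to 737 CPM of HrasG12V shScram, and the log2 difference was -0.02 with a 95% interval of -0.28 to 0.24. A change in Psat1 of the size seen between HrasG12V and WT lay outside that interval. Phgdh averaged 355 ± 37.2 CPM against 355 ± 28.9 CPM (-0.46 to 0.46), and Psph was 68, 66.5 and 82.5 CPM, a log2 difference of -0.19 (-0.52 to 0.15) with overlapping groups.

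In 4 genes every HrasG12V shEif2b5 footprint library was above every HrasG12V shScram library, where 5.5% of all tested genes were and 5.59% were lower. These were Shmt2, Mthfd2, Asns and Aldh18a1, each with an adjusted p of 0.994 (edgeR), and 0 genes lay the other way. Aldh18a1, the first enzyme of proline synthesis, was 101, 102 and 106 CPM (103 ± 2.58) against 85.8, 85.2 and 79.6 CPM (83.5 ± 3.46), a log2 difference of 0.31 (SE 0.15, 95% interval -0.01 to 0.62, unadjusted p = 0.0596). Asns was 123, 139.6 and 187 CPM (149.8 ± 33.4) against 118 ± 1.86 CPM, a log2 difference of 0.34 (SE 0.21, -0.12 to 0.81). Library 3 held the highest Asns value and library 1 was close to the highest HrasG12V shScram value of 120.2 CPM. Without HrasG12V shEif2b5 library 3 the log2 difference in Asns was 0.15. Shmt2 was 163, 165 and 161 CPM against 132, 151 and 149 CPM (0.18, -0.12 to 0.48), and Mthfd2 36.4, 32.6 and 28 CPM against 27.9, 25.7 and 22.6 CPM (0.35, -0.35 to 1.05). All 4 intervals held 0. Differentiated keratinocyte markers summed to 23935, 71723 and 71198 CPM in HrasG12V shEif2b5 footprint libraries 1, 2 and 3, and to 33047 to 40035 CPM in HrasG12V shScram. Without HrasG12V shEif2b5 library 1, 31 of all tested genes were called. The part of cell composition in these footprint differences was not tested.

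**Figure D2:**
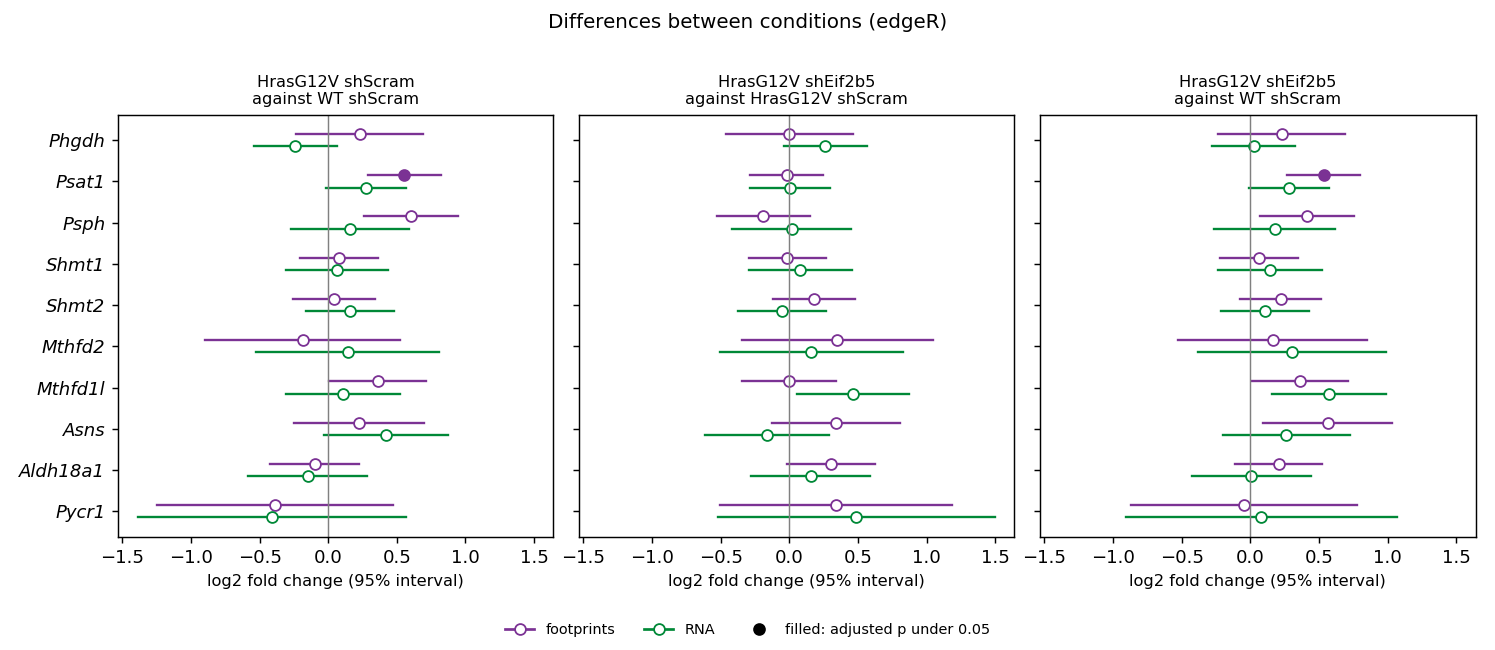
Log2 fold change of each of the 10 genes in the 3 comparisons, for footprints and RNA. Points are edgeR estimates, bars 95% intervals, and filled points passed an adjusted p of 0.05. In footprints only Psat1 among the 10 genes is filled, at 0.55 and 0.53 against WT shScram, while its interval for HrasG12V shEif2b5 against HrasG12V shScram is centred near 0 (-0.02).

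The third comparison set HrasG12V shEif2b5 against the same WT shScram libraries, so it shares samples with both others and adds no separate evidence. Psat1 was again called (1 of 10 genes, against 0.97% of all tested genes), at 1.45-fold (log2 change 0.53, SE 0.13, 95% interval 0.27 to 0.80, adjusted p = 0.0494, edgeR). This call sat at the threshold: it was lost without HrasG12V shEif2b5 library 2 or 3 (adjusted p = 0.134 and 0.238) and without WT shScram library 1 or 2 (0.194 and 0.0567). Asns differed by 0.57 on the log2 scale (SE 0.21, 95% interval 0.10 to 1.04, adjusted p = 0.258, edgeR) and passed in the fit without WT shScram footprint library 2, at 0.89 with an adjusted p of 0.0171. Psat1, Psph and Mthfd1l had every HrasG12V shEif2b5 library above every WT library (3 of 10 genes, where 8.32% of all tested genes did and 7.75% lay the other way). The log2 differences of Psph and Mthfd1l were 0.41 and 0.36, with adjusted p of 0.249 and 0.333 (edgeR). Across the 10 genes the median log2 difference was 0.22, with 9 above 0, against -0.01 over all genes. Atf4 footprints were 45.3, 63.6 and 44.9 CPM (51.3 ± 10.7) and 2.29-fold higher than in WT shScram (adjusted p = 0.0257, edgeR).

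In RNA, none of the 10 genes was called in any comparison. Against WT shScram, HrasG12V shScram called 0 of 10 where 7.7% of all 11096 tested genes were called, and 0 of the 10 had an unadjusted p under 0.05 (2809 of all genes did). Psat1 RNA was 274, 312 and 284 CPM in WT shScram (290.2 ± 19.8) and 379.8, 299 and 374 CPM in HrasG12V shScram (351 ± 45.1). HrasG12V library 2 lay inside the WT range and the other HrasG12V libraries above it (log2 difference 0.28, 95% interval -0.02 to 0.57, adjusted p = 0.224, edgeR). Without HrasG12V shScram RNA library 2 the Psat1 difference was 0.37 and was called (adjusted p = 0.0425), whereas without libraries 1 and 3 it was 0.05. Phgdh RNA lay the other way from the footprint estimate, whose sign rested on WT shScram footprint library 1. It was 265, 333 and 305 CPM in WT shScram (301 ± 34.1) and 242, 269 and 256 CPM in HrasG12V shScram (255 ± 13.6). The Phgdh groups overlapped by a few CPM (log2 difference -0.24, 95% interval -0.54 to 0.06, adjusted p = 0.31, edgeR). Asns RNA was 34.4, 67.6 and 44.5 CPM against 76, 52.7 and 64.8 CPM (log2 difference 0.42, 95% interval -0.03 to 0.88, adjusted p = 0.23, edgeR), and 0.12 without HrasG12V shScram RNA libraries 1 and 3. The 7 other genes had log2 differences of -0.41 (Pycr1) to 0.16 (Psph and Shmt2), and in 0 of the 10 genes did the groups separate, where 13.7% of all tested genes were higher and 12.4% lower without overlap.

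**Figure D3:**
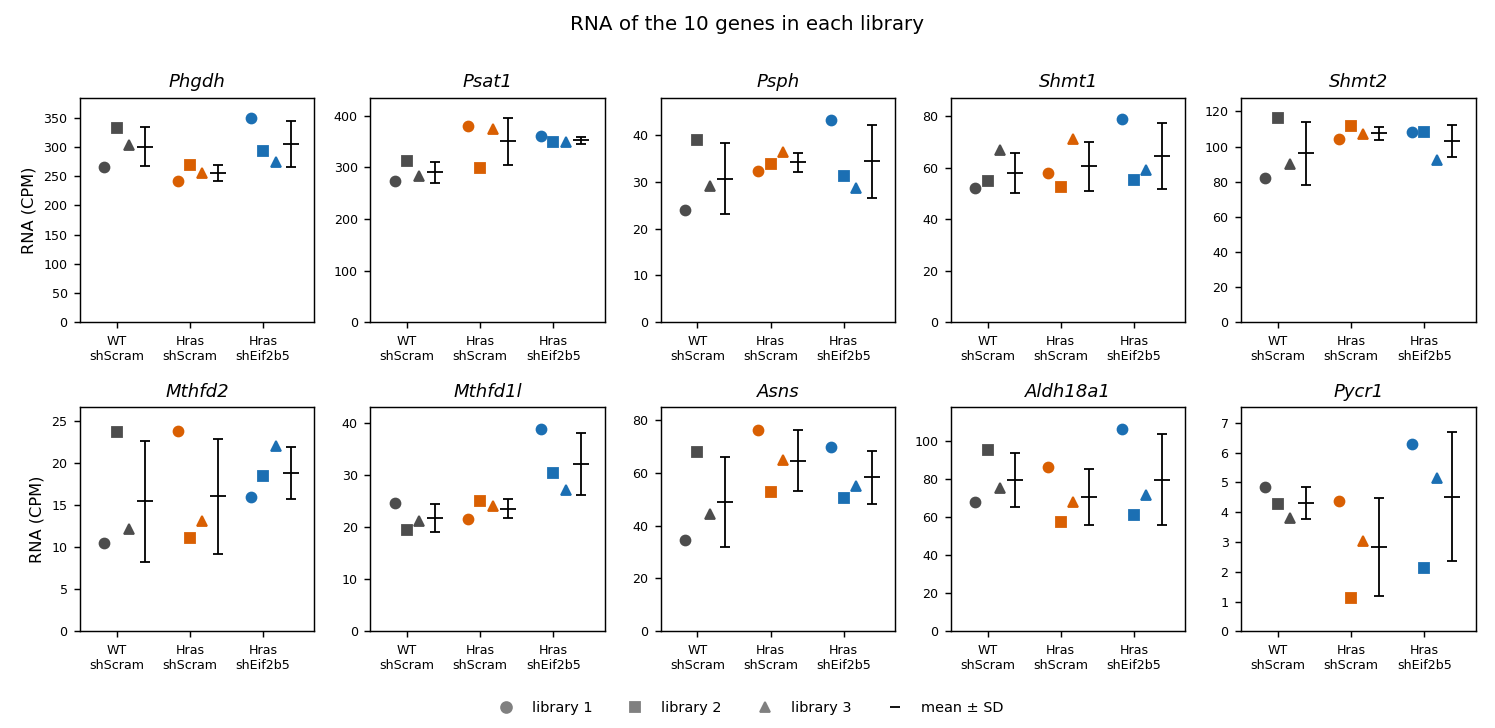
RNA level of each of the 10 genes by condition, in CPM after TMM scaling; each point is 1 library and each bar the mean of 3. The 3 conditions overlap for most genes, and Mthfd1l has its 3 highest values in HrasG12V shEif2b5 (27.2 to 38.9 CPM).

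Between HrasG12V shEif2b5 and HrasG12V shScram RNA, 0 of 10 genes were called where 13.0% of all tested genes were. Mthfd1l RNA was 38.9, 30.5 and 27.2 CPM in HrasG12V shEif2b5 (32.2 ± 5.99) and 21.6, 25 and 24.2 CPM in HrasG12V shScram (23.6 ± 1.78). The groups did not overlap, and the log2 difference was 0.47 (SE 0.20, 95% interval 0.05 to 0.88, adjusted p = 0.117, edgeR). Phgdh RNA was 350.1, 293 and 275 CPM (306 ± 39.2) against 255 ± 13.6 CPM, also without overlap (log2 difference 0.26, adjusted p = 0.226, edgeR). Library 1 of HrasG12V shEif2b5 was the highest of its group for 8 of the 10 genes in RNA, where 35.3% of all genes were highest there. For 2 of the 10 genes every HrasG12V shEif2b5 library was higher, against 13.4% of all tested genes, and for 0 lower, against 15.2%. Against WT shScram the RNA differences of all 10 genes were above 0, with a median log2 of 0.16 against -0.00 over all genes. None was called (0.324% of all genes were). Mthfd1l (log2 0.57, 95% interval 0.16 to 0.99, adjusted p = 0.393, edgeR) and Psat1 (0.28, adjusted p = 0.705) did not overlap with WT, as 7.68% of all tested genes did upwards and 8.34% downwards.

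Footprints per RNA were compared next, as the ratio of the 2 CPM values and, for differences between conditions, as the condition-by-kind interaction of 1 model over all 18 libraries (here called translation efficiency). A ratio of 1 stands near the median of all genes. Asns had 2.08 footprint CPM per RNA CPM in WT shScram, above 82.1% of 10793 tested genes, 1.81 in HrasG12V shScram and 2.56 in HrasG12V shEif2b5. Psph (1.78, 2.42 and 2.09) and Psat1 (1.69, 2.06 and 2.01) were also above the median in all 3 conditions, and Phgdh was nearer to it (1.01, 1.40 and 1.16). Shmt1 (1.83, 1.85 and 1.73) had a higher ratio than Shmt2 (1.46, 1.34 and 1.57) in each condition, a difference that was not tested. Of the mitochondrial pair, Mthfd2 had ratios of 1.91, 1.51 and 1.73 and Mthfd1l of 1.11, 1.33 and 0.956. Atf4 stood far below all of them, at 0.123 in WT shScram, above 1.14% of genes, and at 0.205 and 0.201 in the HrasG12V conditions.

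**Figure D4:**
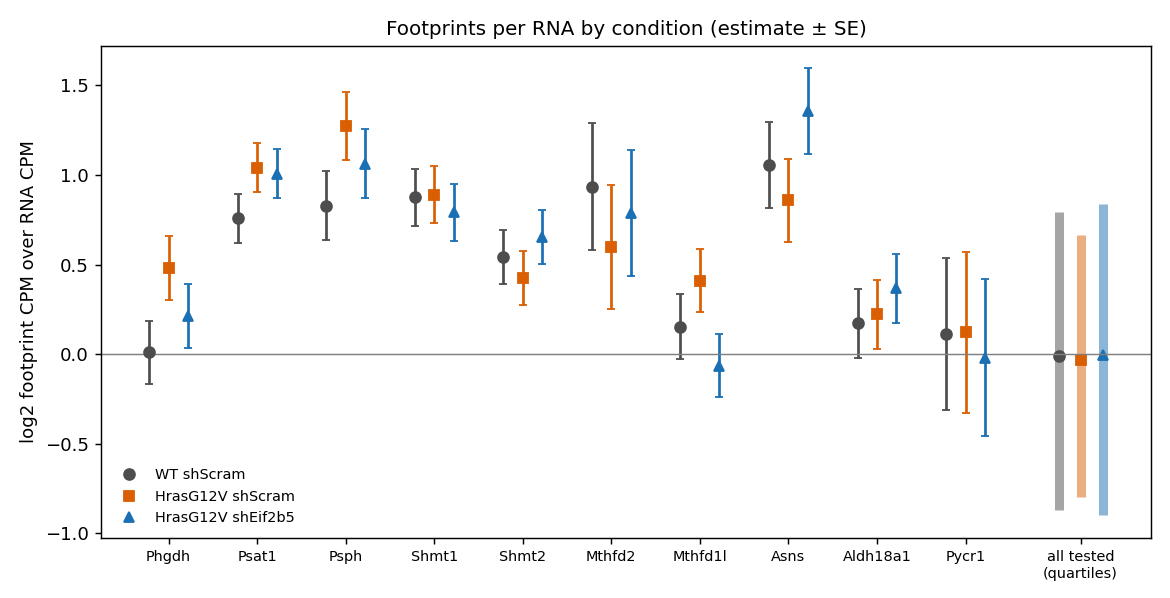
Footprint CPM divided by RNA CPM of each of the 10 genes in the 3 conditions, on a log2 axis, with the spread over all tested genes for comparison. All genes of the set except Mthfd1l and Pycr1 lie above the median of all genes in every condition, Phgdh only just so in WT shScram.

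Translation efficiency called 0 of the 10 genes in each comparison, against 1.17% of all tested genes for HrasG12V shScram with WT shScram, 2.11% for HrasG12V shEif2b5 with HrasG12V shScram and 0.0% for HrasG12V shEif2b5 with WT shScram. None of the 10 had an unadjusted p under 0.05 (1705, 2061 and 634 of all genes did), and no alternative analysis, DESeq2's Wald test included, called 1. Between HrasG12V shScram and WT shScram the serine enzymes differed by log2 0.47 for Phgdh (SE 0.25, 95% interval -0.04 to 0.99, adjusted p = 0.368, edgeR), 0.45 for Psph (adjusted p = 0.44) and 0.28 for Psat1 (adjusted p = 0.502), and Mthfd2 by -0.34 (adjusted p = 0.801). The Phgdh difference ran from 0.22 to 0.70 over 24 alternative analyses. Its adjusted p was highest, at 0.747 (edgeR), without WT shScram footprint library 1. For Psat1 the interval was -0.11 to 0.67, so that the footprint rise was not shown to differ from the RNA difference. Between HrasG12V shEif2b5 and HrasG12V shScram, Asns differed by 0.50 (95% interval -0.20 to 1.19, adjusted p = 0.429, edgeR) and Mthfd1l by -0.48 (-0.99 to 0.04, adjusted p = 0.301). Atf4 differed by 0.74 between HrasG12V shScram and WT shScram (95% interval 0.19 to 1.29, adjusted p = 0.167, edgeR).

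The widest variation of several members lay inside the WT group and was shared by footprints and RNA. WT shScram library 2 was the highest of the 3 for 8 of the 10 genes in footprints and for 7 in RNA, where 31.3% and 33.5% of all tested genes were highest there. For 6 genes it was highest in both kinds (14.7% of all genes were). Mthfd2 in that library was 2.44 times the mean of the other 2 WT libraries in footprints and 2.09 times in RNA, and Asns 1.74 and 1.71 times. Aldh18a1 was 1.58 and 1.33 times and Shmt2 1.47 and 1.35 times the other libraries. The median ratio over the 10 genes was 1.40 in footprints and 1.25 in RNA, against 0.99 over all genes in both. WT shScram library 1 was at the other end, lowest for 6 genes in footprints and 8 in RNA (33.9% and 30.9% of all genes), and Phgdh footprints there were 0.524 times the mean of the others, its RNA 0.832 times.

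Of the other lists, some were mostly highest in WT library 2, as the members were, and some in library 3. Of 18 tested ATF4 regulators and targets outside amino acid synthesis, 11 were highest in library 2 in footprints and 12 in RNA. S phase genes were highest in library 3 for 13 of 16 in each kind, and the 9 basal keratinocyte markers all were. Differentiated keratinocyte markers were highest in library 2 for 7 of 8 in both kinds, and summed to 27867, 45640 and 23041 CPM of footprints and 75309, 103360 and 66233 CPM of RNA in libraries 1, 2 and 3, with no marker at 0. The part of cell composition in the members' spread was not tested. No label ties the footprint and RNA libraries of 1 number to the same cells.

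**Figure D5:**
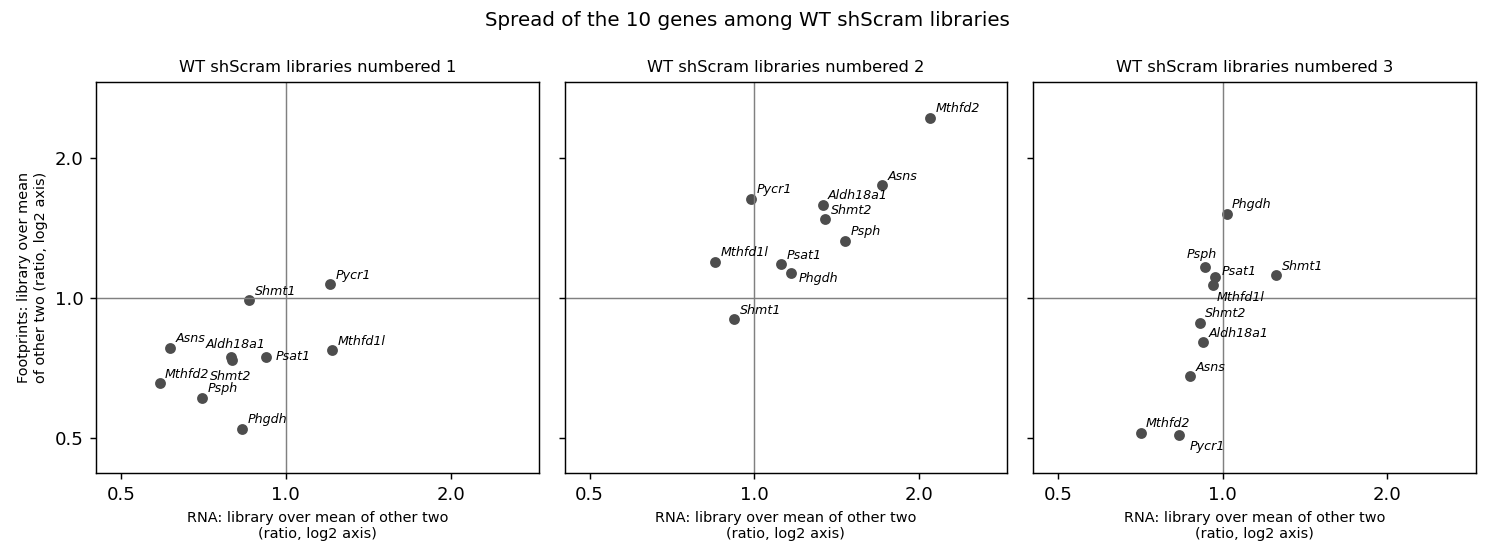
Each WT shScram library's level of the 10 genes divided by the mean of the other libraries, RNA on the x axis and footprints on the y axis (both log2 axes), 1 panel per library number. In the middle panel Mthfd2 (2.09, 2.44), Asns (1.71, 1.74) and 5 further genes lie above 1 on both axes, and in the left panel most genes lie below 1.

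Over the 9 footprint libraries, the closest pairs among the members after Psat1 with Psph were Mthfd2 with Aldh18a1 (Pearson r = 0.90 of log2 CPM) and Shmt2 with Aldh18a1 (r = 0.89, n = 9), and the lowest was Psph with Pycr1 (r = -0.41). In RNA the closest pair was Psph with Shmt2 (r = 0.85), and Phgdh with Psat1 stood at -0.15. Among 8614 other genes, Pck2, the mitochondrial phosphoenolpyruvate carboxykinase, followed the mean of the 10 members most closely (r = 0.97), then Rrbp1 (0.95), a ribosome-binding protein of the endoplasmic reticulum, and Nomo1 (0.95). Asns was followed by Gars (0.98) and Cars (0.95), which charge tRNAs with glycine and cysteine, and by Aldh1l2 (0.96), a mitochondrial folate enzyme. Psat1 was followed by P4hb (0.98), a protein disulfide isomerase, Junb (0.97) and Ppif (0.97), and Phgdh by Tubg1 (0.95), U2af1l4 (0.95) and Ndufv1 (0.94). These are the highest of 8614 correlations over n = 9 libraries that share groups and depth, and they carry no test.

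Among neighbouring genes of the pathway, footprints of HrasG12V shScram against WT shScram called 1 of 12, 1 of 18, 1 of 15 and 0 of 13 genes in the 4 lists that follow, where 1.7% of all tested genes were called. Of 12 tested genes of serine and glycine metabolism outside the set, Gcsh, the carrier protein of the glycine cleavage system, had higher footprints in HrasG12V shScram than in WT shScram (50.2 ± 4.62 against 31.6 ± 7.61 CPM, 1.59-fold, adjusted p = 0.0462, edgeR) and 11 were not called. Of 18 folate genes, Aldh1l1, a cytosolic dehydrogenase of formyl-folate, rose from 8.09, 7.93 and 8.26 CPM to 13.6, 15.6 and 15.5 CPM (1.83-fold, adjusted p = 0.0436, edgeR). Of 15 genes of proline, glutamate and aspartate metabolism, Glul, glutamine synthetase, fell from 124 ± 17.8 to 83.1 ± 3.46 CPM (log2 change -0.58, adjusted p = 0.021, edgeR) and was likewise lower in HrasG12V shEif2b5 (85.4 ± 5.44 CPM, -0.54, adjusted p = 0.047). None of 13 purine synthesis genes was called in footprints. Calls of Gcsh, Aldh1l1 and Glul in the HrasG12V shScram comparison were kept in 7, 8 and 10 of 15 alternative analyses. Median log2 differences of the 4 lists were -0.00 to 0.12 in that comparison, against -0.01 over all genes.

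Among 18 ATF4 regulators and targets outside amino acid synthesis, Atf4 and Slc7a1, a transporter of cationic amino acids, were called higher in HrasG12V shScram footprints (Slc7a1 300.3 ± 43.6 against 204 ± 29.8 CPM, 1.47-fold, adjusted p = 0.0342, edgeR), and 0 were lower. In HrasG12V shEif2b5 against WT shScram, Atf4 and Atf5, a related transcription factor, were called (Atf5 12 ± 2.27 against 5.49 ± 0.185 CPM, 2.17-fold, adjusted p = 0.047, edgeR). Myc was also higher in footprints of HrasG12V shScram (101 ± 22.9 against 58.8 ± 8.75 CPM, 1.72-fold, adjusted p = 0.0168, edgeR) and of HrasG12V shEif2b5 (1.61-fold, adjusted p = 0.0494), the only call among 7 MYC and E2F genes, and 0 of 16 S phase genes were called. Over all tested genes, 1.7% and 0.97% were called in these comparisons. The Slc7a1 call was kept in 9 of 15 alternative analyses, that of Atf5 in 7 of 14, and those of Myc in 12 and 5 of 15 (HrasG12V shScram and HrasG12V shEif2b5, adjusted p up to 0.118 and 0.226). Between HrasG12V shEif2b5 and HrasG12V shScram, 0 genes of any of these lists were called in footprints.

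The RNA of these lists was tested over 12 serine and glycine, 17 folate, 13 purine, 15 proline, glutamate and aspartate, 19 ATF4-linked, 16 S phase and 7 MYC and E2F genes. In that order 1, 0, 0, 1, 3, 0 and 1 were called in HrasG12V shScram against WT shScram, where 7.7% of all tested genes were, and 1, 1, 4, 1, 1, 1 and 1 in HrasG12V shEif2b5 against HrasG12V shScram, where 13.0% were. HrasG12V shScram against WT shScram called Gldc, the decarboxylase of glycine cleavage, lower (21.1 ± 1.51 against 40.7 ± 13.6 CPM, log2 -0.95, adjusted p = 0.0209, edgeR) and Prodh, which degrades proline, lower (21 ± 1.28 against 36.3 ± 0.449 CPM, -0.80, adjusted p = 0.0113). The amino acid transporters Slc7a5 and Slc7a11 and the transcription factor Cebpg, all ATF4-linked, were higher, by 1.52-fold, 3.11-fold and 1.67-fold (adjusted p = 0.027, 0.0498 and 0.0411, edgeR), and Mycn was lower (log2 -0.76, adjusted p = 0.0217). WT Slc7a11 RNA ran from 1.62 CPM in library 1 to 14 CPM in library 2. Between HrasG12V shEif2b5 and HrasG12V shScram, Prodh was higher (34 ± 2.71 CPM, 1.63-fold, adjusted p = 0.0164), as were the pseudokinase Trib3 (1.98-fold, adjusted p = 0.0175), Mycn (1.94-fold, adjusted p = 0.00578), the histone mRNA-binding protein Slbp (log2 0.59, adjusted p = 0.0247) and the purine enzyme Pfas (1.47-fold, adjusted p = 0.0398). Dld, the dehydrogenase of glycine cleavage (log2 -0.67, adjusted p = 0.0167), Ggh, which trims folate polyglutamates (-1.02, adjusted p = 0.0069) and the purine enzymes Gmps (-0.59, adjusted p = 0.0246), Prps1 (-1.21, adjusted p = 0.0363) and Paics (-0.61, adjusted p = 0.0425) were lower. Every RNA call in these lists was lost without HrasG12V shScram RNA libraries 1 and 3 (lowest adjusted p 0.0577, for Ggh), an analysis that leaves 1 HrasG12V shScram library, assumed to vary like the other groups. The log2 differences there were -1.08 for Ggh, -0.66 for Dld, -1.18 for Prps1, 0.72 for Pfas, 0.73 for Slc7a5, 1.68 for Slc7a11, -0.81 for Gldc, 0.85 for Trib3 and -0.70 and 0.62 for Prodh, of similar size to those above. They were smaller for Gmps (-0.23), Paics (-0.12), Slbp (0.29), Cebpg (0.38) and Mycn (-0.38 and 0.58). Translation efficiency called 0 genes of the lists of pathway genes in each comparison, and HrasG12V shEif2b5 against WT shScram called 0 in RNA.

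Some markers of cell types were called in the same RNA comparisons, and are named here after their values were seen. The lists held 9 basal, 8 differentiated, 8 hair follicle and 7 melanocyte markers, and those not named below were not called. Of all tested genes, 7.7% were called in HrasG12V shScram against WT shScram and 13.0% in HrasG12V shEif2b5 against HrasG12V shScram. In HrasG12V shScram against WT shScram the melanocyte enzymes Tyr and Tyrp1 were higher (2.13-fold and 1.89-fold, adjusted p = 0.00514 and 0.0295, edgeR). Krtdap, of differentiated keratinocytes, was also higher (2.21-fold, adjusted p = 0.014, edgeR). The basal keratin Krt15 (log2 -0.98, adjusted p = 0.004) and Shh (-1.05, adjusted p = 0.00734, edgeR) were lower. Unlike Krtdap, the summed RNA of the 8 differentiated markers was lower in HrasG12V shScram (35084 to 64937 CPM) than in WT shScram (66233 to 103360 CPM). In HrasG12V shEif2b5 that sum was 49949 to 61757 CPM, inside the HrasG12V shScram range. In HrasG12V shEif2b5 against HrasG12V shScram the basal keratins Krt5 and Krt14 (1.53-fold and 1.58-fold, adjusted p = 0.042 and 0.029, edgeR) and the hair follicle markers Shh, Lhx2, Lef1 and Krt17 (1.51-fold to 2.03-fold) were higher, and Krtdap (log2 -1.04) and Tyrp1 (-1.02) lower. Without HrasG12V shScram RNA libraries 1 and 3 these calls were lost except that of Lhx2 (log2 0.99, adjusted p = 0.0421). The part of cell composition in the RNA values of the 10 genes was not tested.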

How the data were processed

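Ribosome footprint and RNA libraries of 18 samples were used as the authors' deposited table of raw read counts over coding sequences, 1 row per gene symbol, with all per-sample columns mapped by their labels. Bowtie, TopHat2, HTSeq and mm10 are named per the submitters' processing notes; versions, roles and the strand setting are not given in the sources used here. No other gene's coding sequence overlapped those of the 10 genes in GENCODE. Low-count genes were removed by filterByExpr (at least 10 counts, 15 in total), TMM factors were computed within each kind, and edgeR 4.0.16 (R 4.3.3) quasi-likelihood models were fitted to the 9 libraries of a kind, or to all 18 for translation efficiency (the interaction of condition and kind). All 10 genes passed this filter in the main fits, while Pycr1 fell below the alternative filter at a mean of 10 CPM. P-values were Benjamini-Hochberg adjusted over all tested genes of 1 comparison (9 comparisons in all); 3 against 3 libraries cannot give an exact permutation p under 0.1. Models were tested on simulated data, with larger changes than any of the 10 genes showed and the same spread for every gene. That test does not show how well smaller changes would be found. CPM per kb used GENCODE coding lengths, and correlations log2(CPM + 1).

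The genes and lists were chosen with earlier results of these data known. Text names all 10 genes, Atf4 and Eif2b5, per list and comparison up to 3 called genes with the smallest p, and the 3 closest genes by correlation; Paics was added after its value was seen. Marker lists covered basal and differentiated keratinocyte, hair follicle, skeletal muscle, immune, erythroid, endothelial, Merkel cell, fibroblast and melanocyte. Alternatives used DESeq2 1.42.0 (size factors or Wald test), limma 3.58.1 voom, upper-quartile factors, removal of the 20 most abundant genes, other filters (none, or a mean of 10 CPM), a replicate block, only the 2 conditions compared, and libraries left out.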

Additional observations from a re-analysis of the deposited data

How the results depend on the processing

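Of 1611 estimates of the 10 genes under alternatives, 111 changed sign, none of them called in either analysis, 13 calls were lost and 5 gained. Footprints of HrasG12V shScram against WT shScram called 1 member, 2 with no filter on low counts and with the DESeq2 Wald test, and 0 to 2 when 1 library was left out. Footprints of HrasG12V shEif2b5 against WT shScram called 1 member and 0 with upper-quartile factors, a filter at a mean of 10 CPM, limma voom, the 20 most abundant genes left out or only the 2 conditions compared (adjusted p of Psat1 0.0625, 0.058, 0.0703, 0.0501 and 0.141), and 0 to 1 with 1 library left out. In RNA of HrasG12V shScram against WT shScram the range was 0 to 1. The 6 other comparisons called 0 members throughout. The cause of these changes was not tested.

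Counts over all genes moved more, from 73 to 559, 0 to 31 and 37 to 407 in footprints, 47 to 2431, 17 to 3150 and 12 to 123 in RNA, and 8 to 693, 2 to 1350 and 0 to 18 in translation efficiency (HrasG12V shScram against WT shScram, HrasG12V shEif2b5 against HrasG12V shScram, and HrasG12V shEif2b5 against WT shScram). With the replicate number as a block, 1, 0 and 1 members were called in footprints (219, 1 and 184 of all genes), 0 in RNA and 0 in translation efficiency. The main models did not pair same-numbered libraries of different conditions. Within a kind, correlations of such libraries' deviations ran from -0.31 to 0.31. For HrasG12V shScram with WT shScram, 2 of 3 libraries correlated best with their own number in footprints, and 2 of 3 in RNA. For HrasG12V shEif2b5 with either other condition, 1 of 3 did so in footprints and 0 of 3 in RNA. Between footprints and RNA of 1 number the correlations were 0.152 to 0.287 in WT shScram, 0.049 to 0.179 in HrasG12V shScram and 0.0148 to 0.123 in HrasG12V shEif2b5. There, 3 of 3, 3 of 3 and 2 of 3 libraries, in that order, correlated best with their own number. A block within condition, and WT libraries 2 of both kinds left out, were added for translation efficiency after seeing the data and called 0 members. With 11 to 29 footprint reads, Pycr1 could only have shown large changes, and with 3 libraries a group the intervals printed set the limit for the others. The depositing labels give no sequencing batch.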
